A study of Homo sapiens with 12 samples.

Results

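The cyclins, mitotic kinases, kinetochore, spindle, condensin and anaphase genes of SW1783 cells were followed across a dose series of a herbal water extract. The set held 54 genes, taken by symbol from a list of genes of cell division and matched to the Ensembl IDs of the count table, which held 60675 IDs, of which 30808 had a count in at least 1 library and 15282 had a mean of at least 10 normalised counts. All 54 were found and all 54 passed that mean. The rule that lists them uses no measured value, but the members were chosen with earlier results of these data known. SW1783 is a line of human astrocytoma cells, and this single line was the only model used here. The 4 groups of 3 libraries were the vehicle, which was phosphate-buffered saline with 2% DMSO, and extract of Aconitum carmichaeli Debeaux (ACD, also written ACDW) at a low dose of 20 µg/mL, a medium dose of 100 µg/mL and a high dose of 500 µg/mL. All cells were kept with vehicle or extract for 24 h, and the extract was dissolved in the same saline with DMSO. The protocol text attached to the samples describes the preparation of another herb, Poria cocos, whereas ACD is the extract in the titles, in the treatment fields and in the study, and it is taken as the treatment here. Nothing in the labels says whether the 3 libraries of a group came from separate cultures, so the p-values measure the spread between these libraries, which may be technical.

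The libraries held 18863863 to 24200576 counts each. In a chi-square comparison of counts, no 2 libraries of a group were as close as sampling noise alone would make them, and all 12 were kept as separate replicates. Of 11 markers of astrocytes and astrocytoma cells, 5 reached a mean of 10 normalised counts (VIM, CD44, SOX9, SLC1A3 and NES), while GFAP, S100B, ALDH1L1, SLC1A2 and SOX2 stayed under it and AQP4 was at 0 in every library. In the DESeq2 fit of high dose against vehicle their log2 fold changes were -2.45 for SLC1A3 and -1.72 for NES, -0.38 for CD44, -0.25 for SOX9 and 0.29 for VIM, and the sum of the 11, mostly VIM and CD44, was 144289 to 152085 in the vehicle and 152316 to 154036 at the high dose. Of 4 epithelial markers, KRT18 and KRT8 were measured and EPCAM and CDH1 were near 0. The sum of these 4 was 4861 to 5073 in the vehicle libraries and 1797 to 1888 at the high dose. Of 4 myeloid and lymphoid markers, PTPRC and CSF1R were measured, AIF1 was near 0 and CD3E was at 0, and their sum went from 335 to 348 in the vehicle to 101 to 142 at the high dose. All 3 endothelial markers were under the mean of 10, with sums of 15.4 to 21.0 in the vehicle and 7.21 to 18.5 at the high dose. Of 4 neuron markers, SNAP25 was at -2.07 and SYT1 at 0.44 on the same log2 scale, RBFOX3 and STMN2 were under the mean of 10, and the sum was 1314 to 1377 in the vehicle and 1000.2 to 1067 at the high dose. The share of counts on mitochondrial ribosomal RNA was 0.932% ± 0.025 (SD, n = 3) in the vehicle, 3.14% ± 0.16 under the low dose, 7.83% ± 0.20 under the medium dose and 5.93% ± 0.15 under the high dose. This share was thus highest at the medium dose. The part of these shares and markers in the results below was not tested.

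A cell that divides passes from growth through DNA replication to mitosis. Cyclins D and E with CDK4, CDK6 and CDK2 act before and at the start of DNA replication, cyclin A continues through it, and cyclin B with CDK1 drives entry into mitosis. In mitosis condensin packs the chromosomes, kinetochores built on the centromere attach them to spindle microtubules, checkpoint proteins hold the cell until all are attached, and the anaphase-promoting complex (APC/C) then marks securin and cyclin B for destruction. Many of the genes are transcribed late in the cycle by B-MYB and FOXM1 with the MuvB complex, through a short promoter element called the CHR that often stands near CCAAT boxes, whereas genes of the G1 to S transition more often carry E2F sites.

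The members moved together with dose, as described below. The promoters of 4 lowered members, chosen among those with a CHR and a CCAAT box, are shown first. Promoter windows of 250 bases before and 50 after the start, from RefSeq on GRCh38.p14, were matched for 44 of the 54 members. AURKA, BIRC5, CCND1, CCNE2, CDK2, CENPM, FOXM1, TPX2, TTK and UBE2C had no window in the table. Below are the 250 bases before the start of the 4 members with the lowest log2 fold change at the high dose among those with both a CHR and a CCAAT box there, read 5′ to 3′ on the strand of the gene. The capitals mark 3 kinds of motif found on either strand. These are the CHR (TTTGAA or TTTAAA), the box named by its letters CCAAT, and the E2F site (TTCCCGC or TTCGCGC or TTGCCGC or TTGGCGC).
KIF20A, chr5:138178862-138179111, plus strand: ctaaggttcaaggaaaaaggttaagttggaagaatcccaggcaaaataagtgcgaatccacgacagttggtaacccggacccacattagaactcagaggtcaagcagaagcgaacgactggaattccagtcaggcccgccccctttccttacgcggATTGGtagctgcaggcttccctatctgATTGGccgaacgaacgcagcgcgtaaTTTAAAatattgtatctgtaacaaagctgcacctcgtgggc
MKI67, chr10:128126424-128126673, minus strand: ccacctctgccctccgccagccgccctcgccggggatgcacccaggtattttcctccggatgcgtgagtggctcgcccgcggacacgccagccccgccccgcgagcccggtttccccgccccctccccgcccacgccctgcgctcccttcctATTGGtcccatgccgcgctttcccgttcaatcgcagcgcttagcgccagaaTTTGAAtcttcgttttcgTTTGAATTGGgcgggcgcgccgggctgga
SPC25, chr2:168890431-168890680, minus strand: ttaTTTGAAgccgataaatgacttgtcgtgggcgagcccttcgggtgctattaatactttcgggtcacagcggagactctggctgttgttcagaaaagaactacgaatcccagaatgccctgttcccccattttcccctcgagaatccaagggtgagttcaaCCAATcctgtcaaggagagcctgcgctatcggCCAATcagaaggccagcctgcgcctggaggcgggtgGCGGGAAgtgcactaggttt
KIF11, chr10:92592880-92593129, plus strand: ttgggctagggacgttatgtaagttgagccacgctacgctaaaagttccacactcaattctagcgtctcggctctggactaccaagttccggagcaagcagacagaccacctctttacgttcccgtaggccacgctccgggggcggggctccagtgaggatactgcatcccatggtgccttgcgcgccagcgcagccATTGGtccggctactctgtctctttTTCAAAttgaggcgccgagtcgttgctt
In KIF20A and KIF11 a single CHR lies close to the start with 1 or more CCAAT boxes before it. In MKI67 the CHR nearer the start shares 1 base with a CCAAT box read on the other strand, and in SPC25 the capitals show a CHR far from the start and an E2F site near it, while a further CHR, only in part within these bases, spans the start itself.

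Over the whole 300 bases, 33 of the 44 members (75.0%) held CHR letters, against 24.3% of all 27305 promoters in the table and 16.0% of the promoters of genes with a mean of at least 10. A CCAAT box was found in 28 of 44 (63.6%), against 35.7% of all promoters. E2F letters were found in 13 of 44 (29.5%), against 13.1% of all promoters and 20.3% of those of genes with that mean. A CHR within 60 bases before the start was found in 18 of 44 (40.9%), against 5.19% of all promoters. In 2 members letters of different motifs shared a base. None of the 3 motifs was found in 4 members (9.09%), CDK4, CDK6, CCND3 and MYBL2, against 42.2% of all promoters. Of 45 DNA replication genes, taken for comparison, 38 had a window, and 3 of these (7.89%) held CHR letters and 26 (68.4%) held E2F letters. A CCAAT box was found in 22 of these 38 (57.9%), a share near that of the members. Among the members themselves, the median high-dose log2 fold change was -0.74 in the 33 with a CHR and -0.71 in the 11 without, and it was -0.71 in the 13 with E2F letters and -0.74 in the 31 without. A match of letters is a description of the sequence and not evidence of a bound factor. A missing match is not evidence that an element is absent, since only exact letters in the first window listed per gene were searched.

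**Figure D1:**
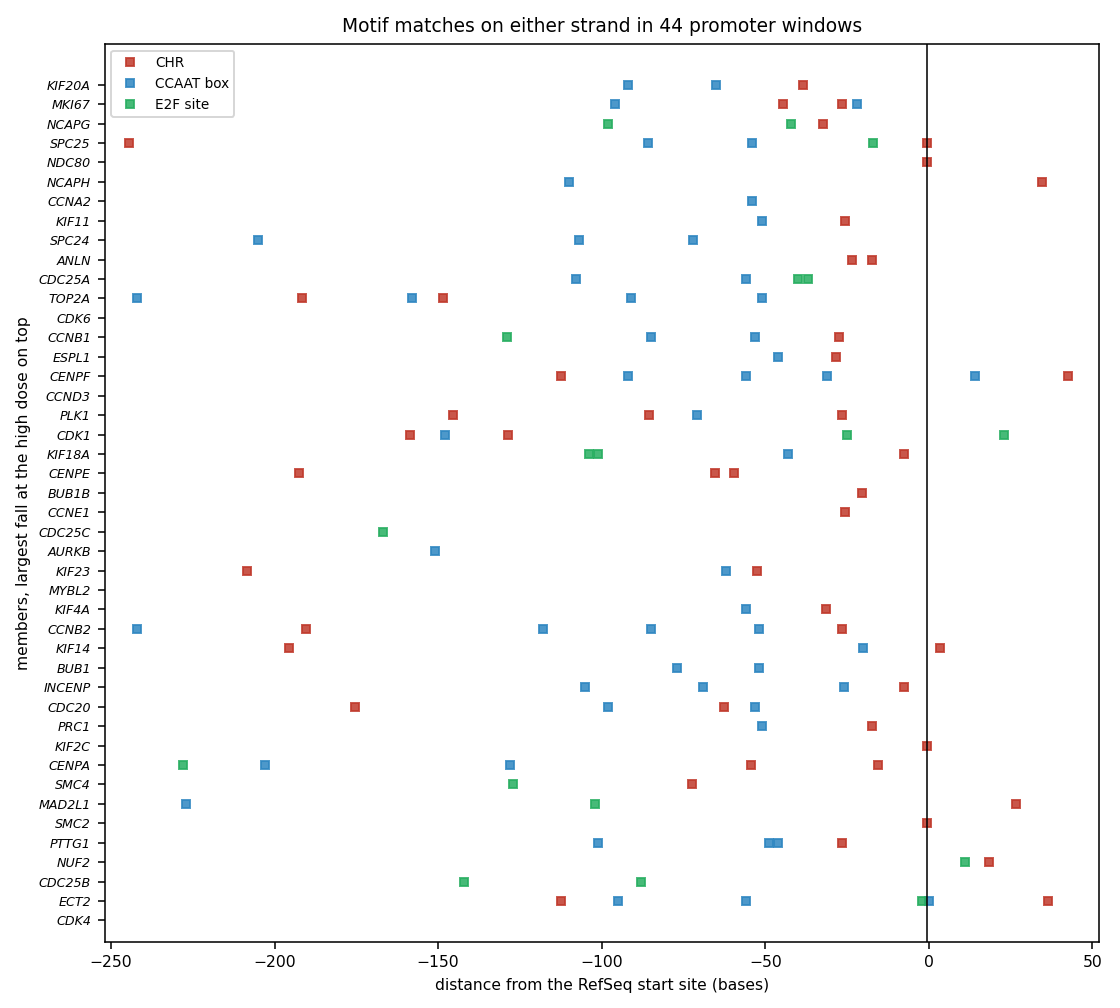
Position of each motif match in the 44 promoter windows, in bases from the RefSeq start (horizontal axis), with 1 row per member and the lowest log2 fold change at the top; red squares are CHR letters, blue squares CCAAT boxes and green squares E2F letters. CHR letters lie within 60 bases before the start in 18 members, and 4 rows are empty.

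At the high dose nearly the whole set fell. A gene was called where its DESeq2 adjusted p was under 0.05 and its fold change was over 1.5 in either direction. In the high dose against the vehicle 36 of the 54 members were called, all of them lower, where 9.57% of the 19453 genes tested were called lower and 18.2% were called in either direction. The genes tested reached down to a mean of 1.72 normalised counts, whereas the lowest member mean was 144, and genes of like counts were not compared separately. By the adjusted p alone 52 of 54 were lower and none higher, where 22.6% of all genes tested were lower. All 3 high-dose libraries lay below all 3 vehicle libraries for the same number of members, 52, where 34.4% of the 15282 genes with a mean of at least 10 did so. The median log2 fold change was -0.74 over the members, that is 40.0% lower, and 0.00 over all genes with that mean. The exceptions were CDK4, the kinase partner of D cyclins, and CCND1, cyclin D1. With counts scaled to library totals they too were lower, making 54 of 54 by the adjusted p. That scaling puts the median of all genes at -0.11. In total RNA of whole cultures, fewer cells in division and less RNA of these genes per dividing cell cannot be told apart.

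The fall was graded over the doses. At the medium dose against the vehicle 1 of 54 members was called, CCNE2, and it was lower, where 1.48% of 14082 genes tested were called lower and 3.81% in either direction. The count was 2 when vehicle replicate 3 was left out, with NCAPG added, or medium replicate 1, with CDC25A added. By the adjusted p alone 44 members were lower and 1, CCND1, was higher, where 14.5% of all genes tested were lower and 15.1% higher. The median log2 fold change was -0.24, and in 46 members the 3 medium-dose libraries all lay below the 3 vehicle libraries, where 24.2% of genes did so. At the low dose 0 of the 53 members with an adjusted p were called by DESeq2, where 0.118% of 9304 genes tested were called, and edgeR's quasi-likelihood test also called 0. By the unadjusted p under 0.05 of DESeq2 6 of the 54 members were lower and 2 higher, where 4.24% and 5.5% of genes with a mean of at least 10 were, and by the adjusted p alone 1 was lower, where 1.24% of the genes tested were. For SPC25 DESeq2 gave none at this dose, since its mean was under the filter set there. The 1 lower member was KIF23, which builds the central spindle for cytokinesis (log2 fold change -0.14, SE 0.043, adjusted p = 0.0483), and its adjusted p ran from 0.00382 to 0.309 over the alternative settings and was over 0.05 when any 1 of the 6 vehicle and low-dose libraries was left out. The median at the low dose was -0.04, and 15 members had all low-dose libraries below all vehicle libraries and 3 had them all above, where 10.3% of genes had them all below and 11.3% all above.

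Between neighbouring doses the members moved at both upper steps. In the medium dose against the low dose 1 member was called, CCNE2, lower, where 0.589% of genes tested were called lower, and 38 were lower by the adjusted p alone, where 9.58% of genes were. Without medium replicate 3 the count called was 0. From the medium to the high dose 14 members were called, all lower, where 5.61% of 16467 genes tested were called lower, and 52 were lower by the adjusted p alone, where 19.8% were. The 14 were NCAPH, SPC25, CCNE2, SPC24, NDC80, NCAPG, CENPF, MKI67, CCNA2, KIF20A, AURKA, TOP2A, CCNB1 and ANLN. The mean of all 54 members went down from the medium to the high dose, and 42 had means in the order vehicle, low, medium and high from highest to lowest. The share of all genes with either order was not counted. In the likelihood ratio test among the 4 groups 53 of 54 members passed an adjusted p of 0.05, where 45.8% of genes tested did, and CDK4 did not. The 8 members that were lower by the adjusted p at the high dose but not at the medium dose were CCNB2, CDC25B, CDC25C, NUF2, CENPA, CENPM, UBE2C and PTTG1. Their medium-dose log2 fold changes ran from -0.20 (NUF2) to 0.04 (CENPA). In CDC25C, NUF2 and CENPM the medium-dose libraries all lay below the vehicle libraries. Which genes are listed depends on the settings. By the adjusted p at the medium dose 46 members were lower with edgeR and 50 with counts scaled to library totals, against 44 here.

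Summed over the 46 members outside the G1 and S phase group, the normalised counts were 102011 to 104413 in the vehicle libraries, 100719 to 101225 under the low dose, 87487 to 88167 under the medium dose and 60425 to 62682 under the high dose. The 4 groups did not overlap in this sum. The mean was below that of the vehicle by 1.95%, 14.8% and 40.1% as the dose went up.

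**Figure D2:**
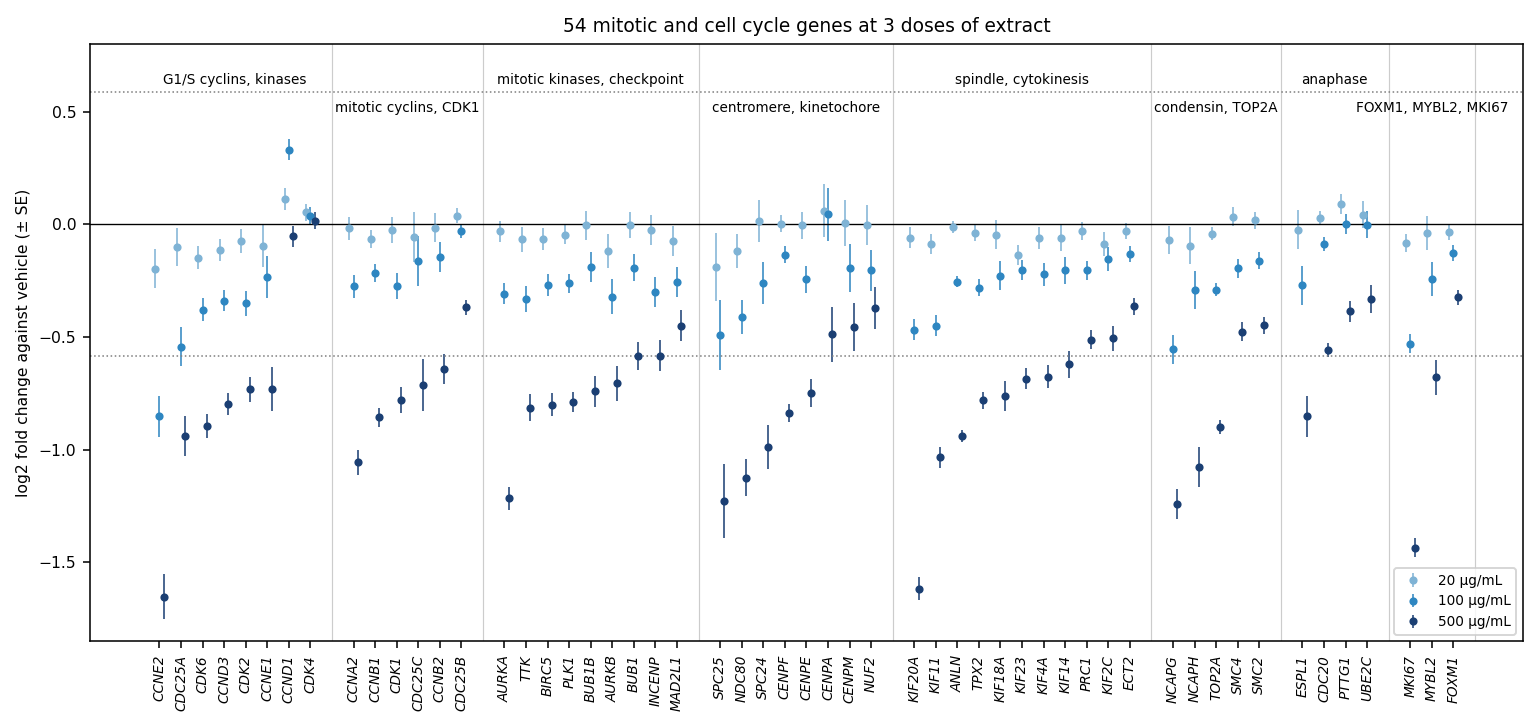
Fitted log2 fold change against the vehicle (vertical axis, with its SE) of each of the 54 members at the 3 doses, grouped by role. Low-dose values lie near 0, medium-dose values mostly lie between them and the high-dose values, and of the high-dose values only CDK4 and CCND1 lie near 0; dotted lines mark a fold change of 1.5.

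Of the 8 G1 and S phase genes 6 were called lower at the high dose, with a median log2 fold change of -0.76. CCNE2, cyclin E2, which activates CDK2 at the start of DNA replication, was at 711, 665 and 648 normalised counts in the vehicle libraries, 609.8, 556 and 601 under the low dose, 415, 379 and 331 under the medium dose and 220.0, 201 and 224 under the high dose. All libraries of each dose lay below those of the next lower dose, at the low dose without passing the test against the vehicle. The high-dose value was 68.2% lower than the vehicle (log2 fold change -1.65, SE 0.099, adjusted p = 1.02e-60). The difference at the medium dose was already past the fold threshold (log2 fold change -0.85, SE 0.092, adjusted p = 1.18e-18). It was the lowest log2 fold change of any member at every dose, and 37.1% of its exon bases overlap exons of a gene on the opposite strand, whose reads cannot be told apart here because no source says whether reads were counted by strand. CDC25A, the phosphatase that activates CDK2, was at 562, 527 and 553 normalised counts in the vehicle libraries, 486, 520.2 and 523 under the low dose, 399.9, 366 and 362 under the medium dose and 299.8, 286 and 272 under the high dose. The 3 low-dose libraries lay below the vehicle without passing the test, and the gene was 47.8% lower at the high dose (log2 fold change -0.94, SE 0.09, adjusted p = 2.54e-24). CCND3, CDK6, CCNE1 and CDK2 were called lower at the high dose with log2 fold changes of -0.80, -0.90, -0.73 and -0.73.

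The other kinase of the D cyclins is CDK4. CDK4 was at 2501, 2446 and 2476 normalised counts in the vehicle libraries, 2661, 2494 and 2539.6 under the low dose, 2503, 2571 and 2539.5 under the medium dose and 2509, 2551 and 2445 under the high dose. The groups overlapped at the high dose and the test did not pass (log2 fold change 0.02, SE 0.039, adjusted p = 0.783), and 44.2% of its exon bases overlap a gene on the opposite strand. With counts scaled to library totals instead of DESeq2 size factors, which shifts the median of all genes by -0.11 at this dose, CDK4 at the high dose was at -0.10 (adjusted p = 0.0259) and CCND1 at the high dose was at -0.17 (adjusted p = 0.000785). CCND1, singled out after its values were seen, was the only member higher than the vehicle by the adjusted p at any dose. CCND1, cyclin D1, was at 3301, 3215 and 3604 normalised counts in the vehicle libraries, 3598, 3846 and 3491 under the low dose, 4255, 4418 and 4050.0 under the medium dose and 3317, 3156 and 3273 under the high dose. All medium-dose libraries were above all vehicle libraries (log2 fold change 0.33, SE 0.047, adjusted p = 4.63e-11), and at the high dose the groups overlapped (log2 fold change -0.05, SE 0.047, adjusted p = 0.378). From the medium to the high dose it fell by 0.39 on the log2 scale.

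The mitotic cyclins, CDK1 and its CDC25 phosphatases numbered 6, of which 5 were called lower at the high dose, with a median of -0.75. CCNA2, cyclin A2, the cyclin of S and G2 phase, was at 1419, 1427 and 1441 normalised counts in the vehicle libraries, 1397, 1435 and 1403 under the low dose, 1141, 1205 and 1194 under the medium dose and 658, 691 and 711 under the high dose. The low-dose libraries overlapped the vehicle and the high-dose libraries were 51.9% lower (log2 fold change -1.06, SE 0.056, adjusted p = 2.19e-77). CCNB1, cyclin B1, the activator of CDK1 at mitotic entry, was at 3686, 3662 and 3798 normalised counts in the vehicle libraries, 3581, 3655 and 3409 under the low dose, 3228, 3249.8 and 3125 under the medium dose and 2134, 1967 and 2061 under the high dose. It was 44.8% lower at the high dose (log2 fold change -0.86, SE 0.04, adjusted p = 1.34e-97) and 13.8% lower at the medium dose (log2 fold change -0.21, SE 0.039, adjusted p = 5.25e-07). CDK1, CCNB2 and CDC25C were called lower at the high dose with log2 fold changes of -0.78, -0.64 and -0.71. CDC25B, the phosphatase that starts CDK1 activation at the centrosome, was at 4383, 4429.6 and 4515 normalised counts in the vehicle libraries, 4535, 4561 and 4583 under the low dose, 4297, 4389 and 4362 under the medium dose and 3465, 3300.1 and 3557 under the high dose. The medium-dose libraries overlapped the vehicle, the low-dose libraries all lay above it without passing the test, and the fall at the high dose was under the fold threshold (log2 fold change -0.37, SE 0.033, adjusted p = 2.38e-27).

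**Figure D3:**
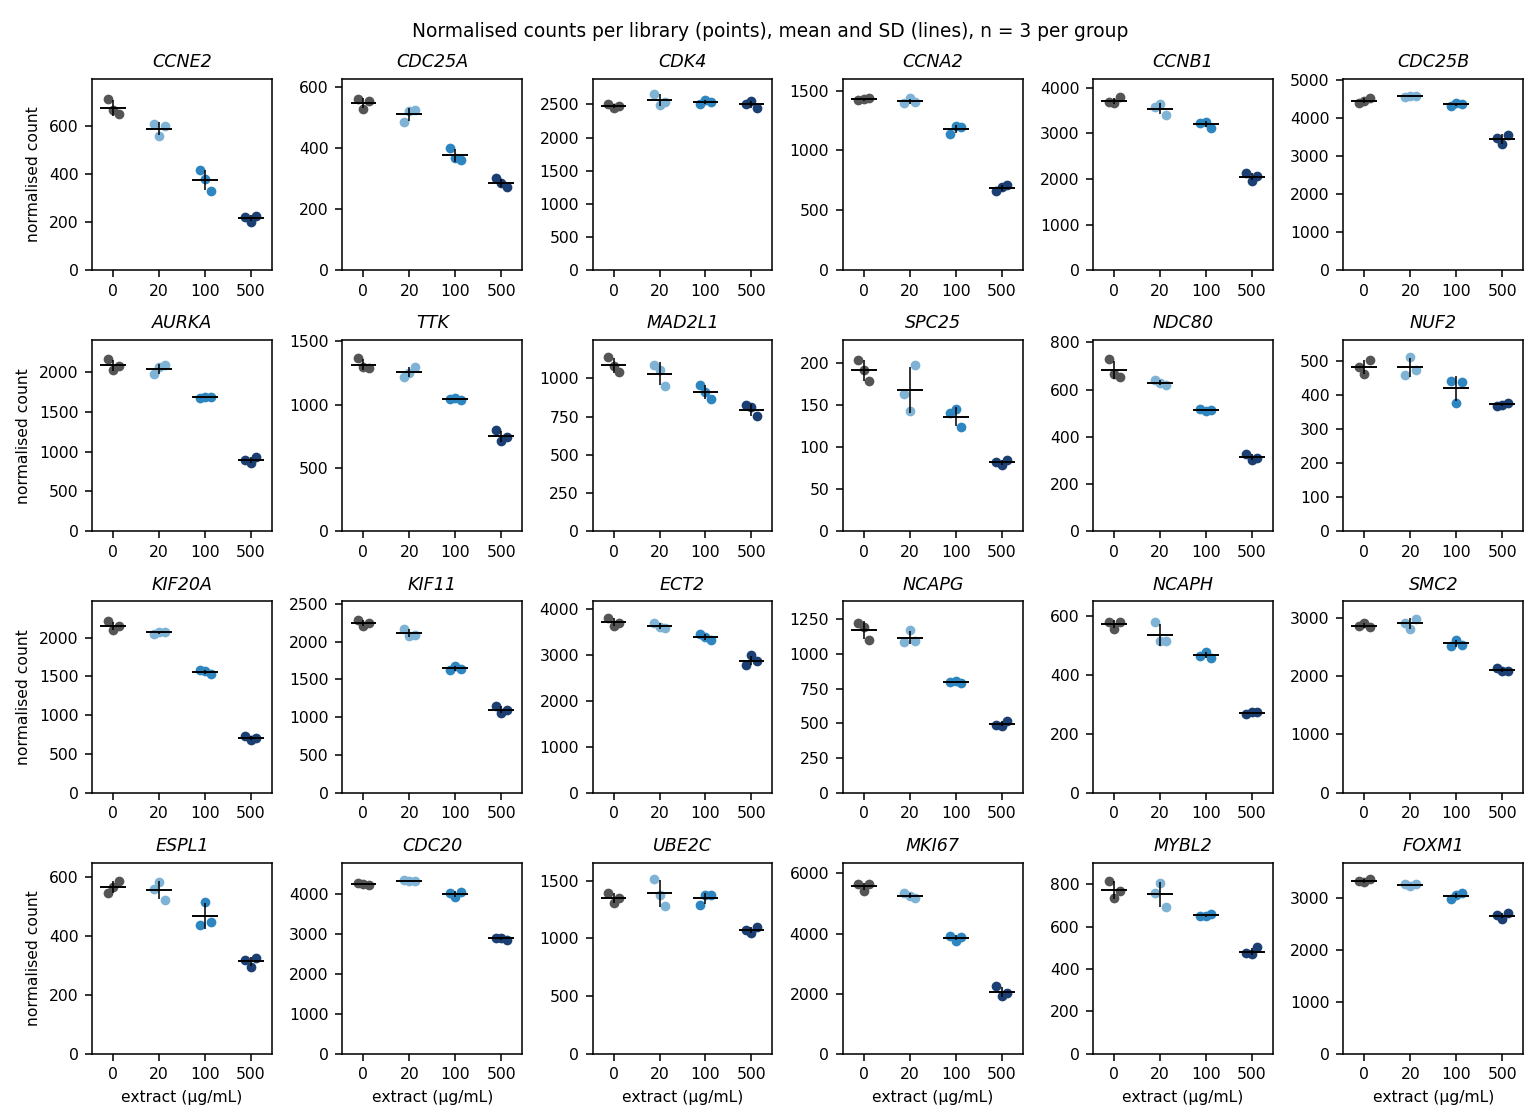
Normalised counts (vertical axes, each starting at 0) in each of the 12 libraries for members of each role group, by dose; points are single libraries and lines are the group mean and its SD (n = 3). KIF20A goes from 2152 ± 54.5 to 703 ± 29 and MKI67 from 5568 ± 130.0 to 2065 ± 165, whereas CDK4 is at 2474 ± 27.6 and 2502 ± 53.6.

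The mitotic and checkpoint kinases, MAD2L1 and the chromosomal passenger complex made a group of 9, with 6 called lower at the high dose and a median of -0.74. AURKA, the kinase of centrosome maturation and spindle assembly, was at 2155, 2019 and 2070.0 normalised counts in the vehicle libraries, 1969.8, 2054 and 2083 under the low dose, 1671, 1688 and 1683 under the medium dose and 895, 859 and 936 under the high dose. It was 56.9% lower at the high dose (log2 fold change -1.21, SE 0.051, adjusted p = 3.2e-124), and the step from medium to high was also past the fold threshold (log2 fold change -0.91, SE 0.052, adjusted p = 6.62e-67). TTK, also known as MPS1, the kinase at the head of the spindle checkpoint, was at 1366, 1298 and 1291 normalised counts in the vehicle libraries, 1222, 1255 and 1299 under the low dose, 1049, 1055 and 1039 under the medium dose and 798, 709.9 and 746 under the high dose. The medium-dose libraries all lay below the vehicle, and the high-dose value was 43.1% lower (log2 fold change -0.81, SE 0.059, adjusted p = 1.18e-41). MAD2L1, the checkpoint protein that holds CDC20, was at 1137, 1078 and 1042 normalised counts in the vehicle libraries, 1089.8, 1054 and 948 under the low dose, 954, 912 and 863 under the medium dose and 825, 809.9 and 751 under the high dose. It was the least changed of the group (log2 fold change -0.45, SE 0.069, adjusted p = 3.17e-10). PLK1 (-0.79), AURKB (-0.71), BIRC5 (-0.80) and BUB1B (-0.74) were called lower, while BUB1 and INCENP, both at -0.58, lay just under the fold threshold of 1.5. AURKB, INCENP and BIRC5 are partners in the passenger complex, which corrects wrong attachments of chromosomes to the spindle.

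Of 8 centromere and kinetochore genes 5 were called lower at the high dose, with a median of -0.79. The 4 subunits of the NDC80 complex, the coupler that binds microtubules, are all members. SPC25 was at 204, 192 and 179 normalised counts in the vehicle libraries, 164, 143 and 198 under the low dose, 140.3, 145 and 123 under the medium dose and 82.2, 78.4 and 85.1 under the high dose. These are the lowest counts of any member, and the high dose was 57.3% lower (log2 fold change -1.23, SE 0.17, adjusted p = 7.86e-13). NDC80 was at 729, 668 and 655 normalised counts in the vehicle libraries, 642, 628 and 619 under the low dose, 518, 511 and 514 under the medium dose and 329, 304 and 311 under the high dose. Each dose group lay below the vehicle, at the low dose without passing the test. The high dose was 54.1% lower (log2 fold change -1.12, SE 0.082, adjusted p = 2.71e-41). SPC24 was at -0.99. NUF2, the fourth subunit, was at 482, 461 and 502 normalised counts in the vehicle libraries, 457, 511 and 473 under the low dose, 440.5, 377 and 437 under the medium dose and 367, 371 and 377 under the high dose. It fell by less than the fold threshold (log2 fold change -0.37, SE 0.091, adjusted p = 0.000158) and its step from medium to high did not pass the test (log2 fold change -0.17, SE 0.093, adjusted p = 0.145). CENPE, a kinetochore motor, and CENPF, which binds the outer kinetochore, were called lower at -0.75 and -0.84. CENPA, the centromeric histone H3, and CENPM fell by less (-0.49 and -0.46).

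Spindle motors, microtubule bundlers and cytokinesis genes made the largest group, 11 genes, of which 8 were called lower at the high dose, with a median of -0.68. KIF20A, a kinesin of the central spindle needed for cytokinesis, was at 2207, 2098 and 2150.2 normalised counts in the vehicle libraries, 2046, 2075 and 2075 under the low dose, 1576, 1568 and 1526 under the medium dose and 734, 677 and 698 under the high dose. The high-dose value was 67.4% lower than the vehicle (log2 fold change -1.62, SE 0.051, adjusted p = 9.07e-216), the second lowest log2 fold change of all members. KIF20A (ENSG00000112984) lies on the plus strand at chromosome 5, 138178719-138187723 in GENCODE v44 on GRCh38. KIF11, the kinesin that pushes the spindle poles apart, was at 2285, 2210.4 and 2248 normalised counts in the vehicle libraries, 2171, 2073 and 2094 under the low dose, 1625, 1678 and 1633 under the medium dose and 1153, 1058 and 1089.7 under the high dose. The medium dose was 26.7% lower (log2 fold change -0.45, SE 0.045, adjusted p = 1.73e-21) and the high dose 51.1% lower (log2 fold change -1.03, SE 0.047, adjusted p = 2e-103). Both carry a CHR close to the start in the sequences above, which were chosen for holding a CHR and a CCAAT box. ECT2, the exchange factor that turns on RhoA for the cleavage furrow, was at 3796, 3619 and 3681 normalised counts in the vehicle libraries, 3689, 3605 and 3568 under the low dose, 3443, 3376 and 3312 under the medium dose and 2769, 2979 and 2858 under the high dose. It was the least changed of the group (log2 fold change -0.36, SE 0.037, adjusted p = 7.21e-22). ANLN, the furrow scaffold, was at -0.94, TPX2, the activator of AURKA, at -0.78, KIF18A at -0.76, KIF23 at -0.68, KIF4A at -0.68 and KIF14 at -0.62, all called lower. PRC1 (-0.51), which shares 57.6% of its exon bases with another annotated gene on the same strand, and KIF2C (-0.51) were lower by the adjusted p only.

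Of 5 condensin and topoisomerase genes 3 were called lower at the high dose, with a median of -0.90. NCAPG, a regulatory subunit of condensin I, was at 1226, 1196 and 1101 normalised counts in the vehicle libraries, 1089.8, 1170.0 and 1093 under the low dose, 799.8, 806 and 792 under the medium dose and 489.7, 481 and 519 under the high dose. It was 31.9% lower at the medium and 57.7% lower at the high dose (log2 fold change -1.24, SE 0.068, adjusted p = 2.15e-73). NCAPH, the condensin I subunit that bridges the SMC heads, was at 582, 558 and 581 normalised counts in the vehicle libraries, 580.0, 515 and 515 under the low dose, 466, 480.0 and 459 under the medium dose and 266, 274 and 274 under the high dose. It was 52.6% lower at the high dose (log2 fold change -1.08, SE 0.089, adjusted p = 1.08e-32). SMC2, an ATPase core subunit of both condensins, was at 2859, 2918 and 2843 normalised counts in the vehicle libraries, 2919, 2816 and 2996 under the low dose, 2527, 2634 and 2547 under the medium dose and 2145, 2084 and 2092 under the high dose. This was the smallest change of the group (log2 fold change -0.45, SE 0.039, adjusted p = 4.19e-29), and the other core subunit, SMC4, was at -0.48. TOP2A, which untangles sister chromatids, was at -0.90 and called lower. The exons of NCAPG and SMC4 overlap genes on the opposite strand over 33.7% and 22.0% of their bases.

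The 4 anaphase genes had the median nearest 0 of the 8 role groups at the high dose, -0.47, and 1 of them was called lower. ESPL1, separase, the protease that cuts cohesin, was at 547, 566 and 587 normalised counts in the vehicle libraries, 561, 585 and 524 under the low dose, 439, 518 and 449 under the medium dose and 319.5, 296 and 327 under the high dose. It was 44.6% lower at the high dose (log2 fold change -0.85, SE 0.092, adjusted p = 1.79e-19). CDC20, the activator of the APC/C, was at 4275, 4259 and 4227 normalised counts in the vehicle libraries, 4361, 4337 and 4323 under the low dose, 4021, 3928 and 4062 under the medium dose and 2909, 2906 and 2856 under the high dose. It was 32.1% lower, just under the fold threshold (log2 fold change -0.56, SE 0.032, adjusted p = 9.04e-68). UBE2C, the ubiquitin-conjugating enzyme of the APC/C, was at 1391, 1307 and 1352 normalised counts in the vehicle libraries, 1510.1, 1377 and 1281 under the low dose, 1288, 1375 and 1376 under the medium dose and 1073, 1049 and 1096 under the high dose. Its medium-dose libraries overlapped the vehicle and the high dose was 20.5% lower (log2 fold change -0.33, SE 0.061, adjusted p = 2.9e-07). PTTG1, securin, was at -0.39 at the high dose, with no change passing the test at the medium dose (0.00).

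The last group held MKI67 and the transcription factors MYBL2 and FOXM1, of which MKI67 and MYBL2 were called lower. MKI67, the source of the Ki-67 antigen that coats mitotic chromosomes and is used to stain cycling cells, was at 5647, 5418 and 5639 normalised counts in the vehicle libraries, 5340.1, 5248 and 5181 under the low dose, 3925, 3758 and 3889.8 under the medium dose and 2244, 1917 and 2033 under the high dose. Every dose group lay below the vehicle, at the low dose without passing the test. The value was 30.7% lower at the medium and 63% lower at the high dose (log2 fold change -1.43, SE 0.043, adjusted p = 3.54e-243). MYBL2, B-MYB, the partner of MuvB, was at 818, 735 and 769 normalised counts in the vehicle libraries, 759, 808 and 691 under the low dose, 650.3, 651 and 661 under the medium dose and 473, 471 and 503 under the high dose. It was 37.6% lower at the high dose (log2 fold change -0.68, SE 0.077, adjusted p = 1.61e-17). FOXM1 was at 3313, 3292 and 3363 normalised counts in the vehicle libraries, 3254, 3218 and 3263 under the low dose, 2979, 3053 and 3089 under the medium dose and 2666, 2597 and 2697 under the high dose. Its fall at the high dose was 20.1% and under the fold threshold (log2 fold change -0.32, SE 0.035, adjusted p = 1.63e-19).

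Levels differed widely between members. Per kilobase of exon, the vehicle libraries had the most CDC20 (2114 normalised counts per kilobase), ANLN (1543) and CCNB1 (1527), and the least CDC25C (97.5), NCAPH (87.6) and ESPL1 (63.8). The SE of the log2 fold change at the high dose had a median of 0.056 over members and was highest, 0.17, for SPC25, the member with the lowest counts. In all, 10 members share over 10% of their exon bases with another gene, and of the 44 others 31 were called lower at the high dose and all 44 were lower by the adjusted p, with a median of -0.76.

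Other genes of the same processes, 114 in 8 lists, fell in part. At the high dose 39 of them were called lower and 3 higher, where 9.57% of all genes tested were called lower and 8.66% higher. The median log2 fold change was -0.32 over the 113 with a mean of at least 10. At the medium dose 3 were lower and 1 higher, where 1.48% of all genes tested were called lower and 2.34% higher, with a median of -0.16. At the low dose DESeq2 and edgeR both called 0, where DESeq2 called 0.118% of all genes tested. By the unadjusted p under 0.05 of DESeq2, 10 were lower and 5 higher, where 4.24% and 5.5% of genes with a mean of at least 10 were. The lowest and highest gene of each list show the range. Among other kinetochore genes ZWINT was at -1.06 and MIS12 at 0.42. Among other checkpoint and passenger genes CDCA8, borealin, the fourth subunit of the passenger complex, was at -1.15 and MAD1L1 at 0.25. Among spindle genes ASPM, which works at spindle poles, was at -1.49 and CKAP5, a microtubule polymerase, at 0.05 (adjusted p = 0.251). Among condensin and cohesin genes ESCO2, a cohesin acetyltransferase of S phase, was at -0.95 and PDS5A, a cohesin regulator, rose at 0.53.

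The APC/C list ran from FBXO5, the APC/C inhibitor EMI1, to CDC16, a structural subunit. FBXO5 was at 838, 701 and 785 normalised counts in the vehicle libraries, 662, 642 and 625 under the low dose, 439, 455 and 474 under the medium dose and 267, 317 and 323 under the high dose. It was called lower under both the medium dose (log2 fold change -0.76, SE 0.087, adjusted p = 9.73e-17) and the high dose (log2 fold change -1.35, SE 0.091, adjusted p = 4.23e-48). CDC16 rose without passing the fold threshold (log2 fold change 0.41, SE 0.05, adjusted p = 2.41e-15). Among other cyclins and kinases CCNF was the lowest at -1.13 and CDK7, the kinase that activates CDKs, the highest at 0.48. Of the MuvB core and B-MYB relatives, MYB was at -1.78 on few counts (23.8 in the vehicle and 6.92 at the high dose), and LIN37 was called higher at 0.65, with 41.8% of its exon bases overlapping a gene on the opposite strand and 26.7% one on the same strand.

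**Figure D4:**
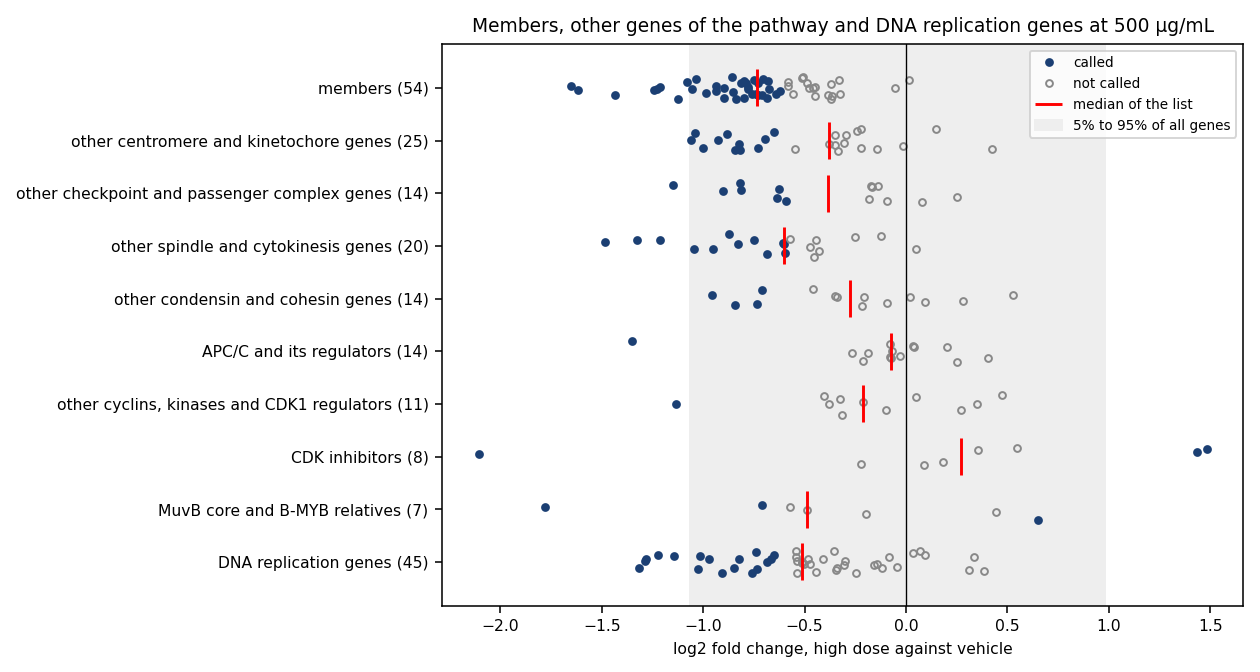
Log2 fold change at the high dose against the vehicle (horizontal axis) for each gene of the 54 members, the other lists of cell division genes and the DNA replication genes; each point is 1 gene with a mean of at least 10 normalised counts, filled where called, the red line is the median and the grey band is the central range of all genes given in the key. The members' median is -0.74, that of the 113 other genes is -0.32 and that of the DNA replication genes is -0.51.

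The CDK inhibitors moved in opposite directions. CDKN1A, p21, an inhibitor of CDK2 and CDK1 complexes, was at 446, 464 and 438 normalised counts in the vehicle libraries, 422, 396 and 383 under the low dose, 376, 411 and 402 under the medium dose and 1175, 1229.8 and 1244 under the high dose. The high-dose libraries were 2.71 times the vehicle (log2 fold change 1.44, SE 0.073, adjusted p = 1.6e-84), while the medium-dose difference did not pass the test (log2 fold change -0.18, SE 0.081, adjusted p = 0.0778). CDKN2B, p15, an inhibitor of CDK4 and CDK6, was at 638, 676 and 689 normalised counts in the vehicle libraries, 729, 761 and 811 under the low dose, 1019, 1002 and 1056 under the medium dose and 1915, 1866 and 1826 under the high dose. It rose at the medium dose (log2 fold change 0.62, SE 0.062, adjusted p = 8.12e-22) and was 2.8 times the vehicle at the high dose (log2 fold change 1.48, SE 0.059, adjusted p = 2.81e-136). CDKN2C, p18, another inhibitor of CDK4 and CDK6, was at 1992, 2071 and 2039 normalised counts in the vehicle libraries, 1803, 1936 and 1896 under the low dose, 1116, 1149 and 1147 under the medium dose and 508, 434 and 479 under the high dose. It was 76.8% lower at the high dose (log2 fold change -2.11, SE 0.06, adjusted p = 1.49e-264), a lower log2 fold change than that of any member, and 20.4% of its exon bases overlap a gene on the opposite strand. CDKN3, a phosphatase of CDKs, fell by 0.22 on the log2 scale and CDKN2D rose by 0.36 (adjusted p = 0.031), both under the fold threshold. CDKN1B was at 0.09 (adjusted p = 0.383), CDKN2A at 0.18 (adjusted p = 0.135) and CDKN1C, at few counts, at 0.55 (adjusted p = 0.29).

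The 45 DNA replication genes give the phase before mitosis. At the high dose 17 were called lower, with a median log2 fold change of -0.51, where the members had 36 of 54 and -0.74. Of all genes tested 9.57% were called lower there. At the medium dose 4 were called lower, with a median of -0.28, where the members had 1 and -0.24, and 1.48% of all genes tested were called lower. At the low dose DESeq2 and edgeR both called 0. At an unadjusted p under 0.05 of DESeq2 8 of the 45 were lower, where 4.24% of genes with a mean of at least 10 were. By the adjusted p alone 5 of the 42 with an adjusted p were lower, against 1 of 53 members and 1.24% of all genes tested. The difference between the 2 sets was not tested.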

How the data were processed

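Directional mRNA-seq libraries of SW1783 cells, 12 in 4 groups of 3, were analysed. The authors aligned paired reads with STAR to GRCh38 and deposited expected counts per Ensembl gene from RSEM 1.3.3, and the processing notes also name FastQC and Trim Galore. The library kit keeps strand, but whether the counting used it is not given in the sources used here. The expected counts (18863863 to 24200576 per library) were rounded to whole numbers and fitted in R 4.3.3 with DESeq2 1.42.0 on all genes and all 12 libraries, with group as the only term and a two-sided Wald test. Benjamini-Hochberg adjustment covered the genes left by DESeq2's independent filtering at 0.05, which sets a lowest mean count for each comparison. These were 9304 genes for the low dose against vehicle and 19453 for the high dose. To normalise, each count was divided by the size factor that DESeq2 estimated for its library. A gene was called at an adjusted p under 0.05 and a fold change over 1.5. Alternatives were edgeR 4.0.16 (quasi-likelihood test), other scalings, filters and samples in the fit, a replicate block, a test against the fold threshold and each library left out. The scripts were tested on simulated data. No column of another series was used.

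Values in every library are given for the 2 members with the lowest and the 1 with the highest log2 fold change at the high dose in each of 8 role groups and for members called at the low or medium dose or called higher. Of the other lists, the lowest and highest gene and all CDK inhibitors are named. The members and lists were chosen with earlier results of these data known. Motif letters were searched on both strands of the first RefSeq window listed for each gene. Exon overlaps and gene positions come from GENCODE. 1 marker gene is not reported here.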

Additional observations from a re-analysis of the deposited data

How the results depend on the processing

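The counts of members called at the high dose (36 to 38) and lower by the adjusted p there (52), and the 53 members that differed among the groups, stayed in those ranges when each library was left out. The number lower or higher by the adjusted p at the medium dose was 45, and 37 to 42 with a library left out. At the low dose it was 1, and it was 0 without independent filtering, 0 with only the 2 groups compared, 2 with edgeR, 4 with library-total scaling and 0 to 2 with a library left out. Library-total scaling moved the members' median log2 fold change to -0.075, -0.35 and -0.85 at the low, medium and high dose, because it shifts all genes by -0.03, -0.11 and -0.11. It also raised the count called at the medium dose to 5, and turned the direction of PTTG1 at the medium dose (-0.11, adjusted p = 0.0354) and CDK4 at the high dose (-0.10), and made the members lower by the adjusted p at the high dose 54, with CCND1 and CDK4 among them. With a library left out the medians ran from -0.052 to -0.036 at the low dose, -0.26 to -0.22 at the medium dose and -0.77 to -0.70 at the high dose. The count called at the medium dose then ran from 1 to 2, and that of the medium against the low dose from 0 to 1. Tested against the fold threshold itself, 0 members were called at the medium dose, 0 in the medium against the low dose and 5 in the high against the medium dose, and 1 and 26 of the 114 other genes were called at the medium and high dose, where 4 and 42 were called otherwise. Among the members called lower at the high dose, KIF14 (log2 fold change -0.62, SE 0.060) and CCNB2 (-0.64, SE 0.068) lay less than their SE past the fold threshold. Leaving out the 10 members whose exons overlap other genes, an alternative chosen after seeing the data, left 0 called at the medium dose and 0 in the medium against the low dose, since CCNE2 is among them. For the named genes at single doses, 3092 of 3192 alternative values kept their direction and side of the threshold. Of the 756 such values of the members at the medium dose 713 did so. Values that did not were found in 16 members at the medium dose, 5 at the low dose and 2 at the high dose. Among the other named genes they were found in 5 at the low dose and 3 at the medium dose, CDKN1A being among the latter. At the high dose these other genes were CDKN2A, CDKN2D and MAD1L1.

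The replicate numbers were not taken as pairs in the main fit. Correlations of same-numbered libraries' deviations from their group means ran from -0.12 to 0.02 between the vehicle and a dose. Between doses they were all above 0, from 0.04 to 0.27. Of the 12 libraries, 8 correlated best with a library of their own number. With the replicate block the count lower at the low dose by the adjusted p was 0, and no other count over the members changed by over 1.5 times.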

Other observations

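Within the NDC80 and condensin I complexes, the members were at different log2 fold changes at the high dose: NDC80, SPC24 and SPC25 lay from -1.23 to -0.99 and NUF2 at -0.37, and NCAPG and NCAPH lay at -1.24 and -1.08 and SMC2 at -0.45. The ratios below were picked for that difference after the values were seen, so they are a description with no test. The ratio of normalised counts of NUF2 over NDC80 was 0.706 ± 0.054 (SD, n = 3) in the vehicle, 0.763 ± 0.051 under the low dose, 0.813 ± 0.066 under the medium dose and 1.18 ± 0.059 under the high dose. For SMC2 over NCAPG it was 2.45 ± 0.13 in the vehicle, 2.61 ± 0.18 under the low dose, 3.21 ± 0.054 under the medium dose and 4.25 ± 0.19 under the high dose.

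Such ratios are taken within a library and do not depend on how libraries are scaled. SMC2 also belongs to condensin II, and 33.7% of the exon bases of NCAPG overlap a gene on the opposite strand.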
